A study of Mus musculus with 24 samples.

Results

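Igf1, Igf1r, Igfbp4, Igfbp5, Mtor, Rptor, Rps6kb1, Deptor, Sesn1 and Tsc2 are the IGF1 and mTOR growth pathway genes described here, 10 of the 55416 genes counted in gastrocnemius, a calf muscle. They were chosen by name, each symbol was matched to its Ensembl identifier, and all 10 passed the filter on low counts that left 16408 genes for testing. The muscle came from 24 wild-type C56BL6J mice (the strain as the labels write it, and C57BL/6J in the methods), with 6 sham and 6 SMC animals of each sex. Mice of the SMC groups lived for 8 weeks in a small mouse cage, an acrylic box that restricts spontaneous movement, and sham mice stayed ambulatory. The mice were bought at 8 weeks of age and carried no transgene or deletion, and all had been without food for 4 hours when the tissue was taken. The question asked of these genes was which of them differed between sham and SMC muscle in each sex, and which differed between the sexes.

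IGF1 is a growth factor made by liver and, locally, by muscle. It binds the IGF1 receptor and, through PI3K and AKT, relieves the brake that the TSC complex puts on the small GTPase RHEB, which then activates the kinase mTOR in the complex mTORC1. Active mTORC1 phosphorylates S6 kinase and other effectors to raise protein synthesis, and in muscle this route is known for its part in fibre growth and in the loss of mass with disuse. Signaling through it runs on phosphorylation, which RNA counts do not measure.

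Values are CPM, the read count of a gene relative to the library total after TMM scaling, and errors are SD over n = 6 libraries unless said otherwise. Fold changes, their standard errors (SE) and their 95% confidence intervals (CI) come from edgeR's quasi-likelihood test on the raw counts of all 24 libraries. A gene was called when its Benjamini-Hochberg adjusted p over the 16408 tested genes (FDR) was under 0.05. Total counts per library were 23026627 to 36880413, and the lowest count of any of the 10 genes in a library was 117, for Igf1. The muscle fibre markers Acta1, Ckm, Myh4, Myh1, Tnnt3, Mylpf and Actn3 summed to between 67214 and 151345 CPM, and no marker of any of the 8 cell type lists checked was at 0 in a library. Male sham replicate 4 and female sham replicate 7 stood apart from the other libraries, with slow fibre marker sums of 248 and 237 CPM against group medians of 6070 and 5439 CPM. Values without them are given beside the results that they moved most.

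Sesn1 was the member that changed with SMC housing. Sestrin 1, its product, is a stress-induced, leucine-binding protein that restrains mTORC1 through the GATOR complexes, and its gene lies in GRCm38 at chr10:41809935-41908424 on the plus strand. Ddit4 was the other gene of the wider pathway list that changed with SMC, and the kinase gene Mtor did not pass the test. The bases before a RefSeq start of Sesn1 are shown beside those of Ddit4 and Mtor. They are RefSeq sequence of the build GRCm38.p6, at chr10:41887189-41887438 (plus strand) for Sesn1, chr10:59951835-59952020 (minus strand) for Ddit4 and chr4:148448332-148448581 (plus strand) for Mtor, written 5′ to 3′ along the gene and cut where an annotated exon begins. The Sesn1 stretch lies inside the annotated gene, downstream of its first annotated base. Where a gene had several RefSeq starts, the window with the longest stretch free of annotated exons was taken. Which start of Sesn1 this muscle uses was not tested. Capitals mark matches, on either strand, to the GC box GGGCGG or to CCAAT.
Sesn1: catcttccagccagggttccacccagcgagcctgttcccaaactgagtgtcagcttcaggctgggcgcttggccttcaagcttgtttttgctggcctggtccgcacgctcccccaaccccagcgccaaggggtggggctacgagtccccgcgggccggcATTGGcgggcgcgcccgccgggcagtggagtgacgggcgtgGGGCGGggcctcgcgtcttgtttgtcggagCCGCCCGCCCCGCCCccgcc
Ddit4: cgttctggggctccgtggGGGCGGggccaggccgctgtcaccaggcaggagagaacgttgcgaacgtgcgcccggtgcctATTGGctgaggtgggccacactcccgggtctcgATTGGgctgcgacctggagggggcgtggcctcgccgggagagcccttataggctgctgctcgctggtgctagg
Mtor: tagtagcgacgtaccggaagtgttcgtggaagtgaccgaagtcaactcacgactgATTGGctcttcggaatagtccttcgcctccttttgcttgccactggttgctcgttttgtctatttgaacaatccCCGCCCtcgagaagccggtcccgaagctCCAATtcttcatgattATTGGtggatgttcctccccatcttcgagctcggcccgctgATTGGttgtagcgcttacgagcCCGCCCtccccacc
The Sesn1 stretch held 4 GC boxes, of which 3 that partly overlap each other lie within the 20 bases next to the start, and 1 CCAAT match. The Ddit4 stretch held 1 GC box and 2 CCAAT matches, and the Mtor stretch held 2 GC boxes and 4 CCAAT matches. Among 32851 RefSeq windows of 250 bases before a start, 32.7% held the GC box and 33.8% held CCAAT, so neither is rare. None of these 3 stretches held TATAAA (in 12.4% of windows), the FoxO element GTAAACA (3.17%) or the E-box CACGTG (6.02%). The windows of Sesn1 and Ddit4 were GC-rich, at 71.2% and 70% G or C against 54.4% for Mtor and a median of 52.4% over all windows. These are matches of letters in a short window, and RefSeq promoter windows were matched for 9 of the 10 genes, Deptor being the other.

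Sesn1 fell with SMC when the sexes were averaged, with lower estimates in each sex. In male sham the 6 libraries held 33.4, 22.05, 25.4, 109, 26.8 and 19.6 CPM, and in male SMC 20.01, 16.8, 18.5, 19.3, 21.9 and 18.3 CPM. In female sham they held 60.9, 54.2, 33.2, 41.7, 47.9 and 60.8 CPM, and in female SMC 19.9, 21.8, 32.9, 24.4, 31.4 and 35.4 CPM. In both sexes the groups overlapped, with 4 of 6 male and 5 of 6 female SMC libraries below every sham library of their sex. Averaged over the sexes, Sesn1 fell by 0.94 on the log2 scale (SE 0.215, 95% CI -1.39 to -0.50), a 1.92-fold lower level, and passed the test (FDR 0.0215). It was the only one of the 10 members called in this comparison, where 2.36% of all tested genes were called (1.33% lower), and 1 gene in 10 is too few to set the members apart from that share.

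Within each sex the fall of Sesn1 did not pass the test by edgeR, while DESeq2 called it in males and not in females. The estimate was -1.04 in males (SE 0.305, FDR 0.195) and -0.85 in females (SE 0.302, FDR 0.209). The male and female responses differed by -0.19 (95% CI -1.07 to 0.69, FDR 0.997), an interval wide enough to hold a large difference either way. Without male sham replicate 4 that difference changed sign, to 0.42, and was not called. Without male sham replicate 4, which held 109 CPM, the log2 fold change was -0.42 in males (FDR 0.361), -0.84 in females (FDR 0.0142) and -0.63 averaged over the sexes. Without both libraries that stood apart, Sesn1 still fell by 0.60 on the log2 scale averaged over the sexes (FDR 0.0092) and by 0.78 in females (FDR 0.0244). The mean over the sexes passed the test under each of the 29 alternative settings tried, with log2 fold changes from -1.01 to -0.60.

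**Figure D1:**
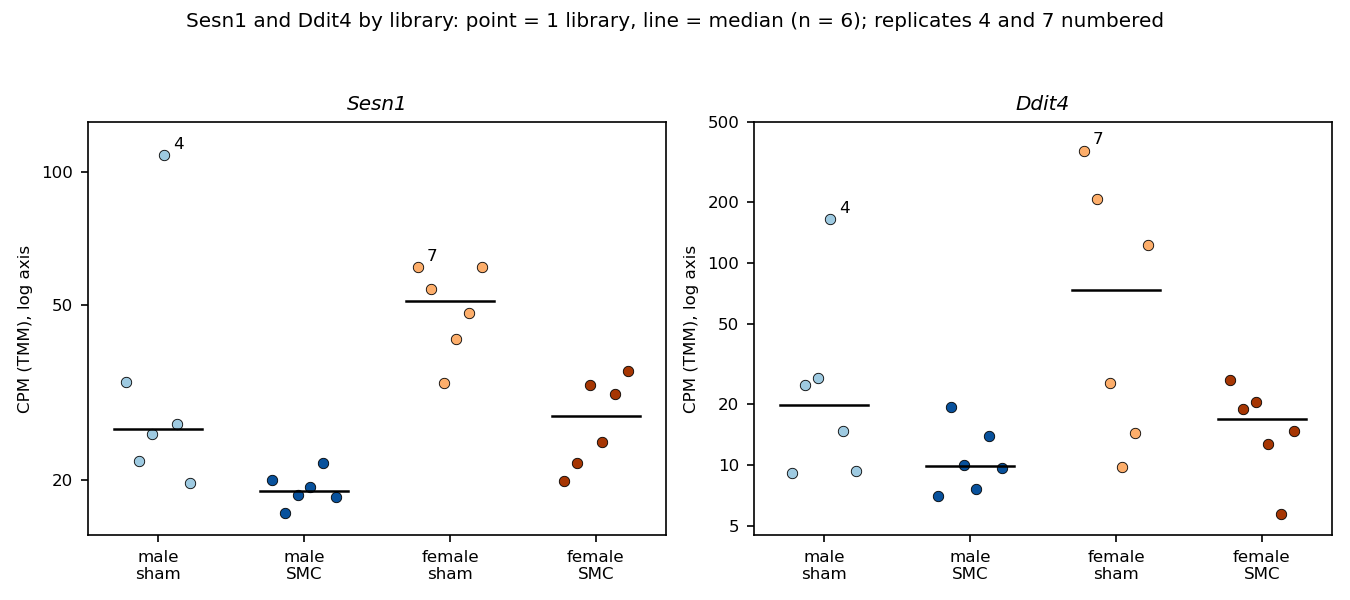
CPM of Sesn1 (left) and Ddit4 (right) on log axes in the 24 libraries, by group, with the line at the group median and male sham replicate 4 and female sham replicate 7 numbered. The SMC libraries of Sesn1 sat low and close together in males (16.8 to 21.9 CPM), and Ddit4 in female sham spread from 9.77 to 360 CPM.

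Ddit4 (REDD1), a stress-induced inhibitor that acts on mTORC1 through the TSC complex, was the other gene of the wider pathway list called for SMC. Its male sham libraries held 9.17, 24.8, 26.9, 165, 14.8 and 9.30 CPM and its male SMC libraries 7.03, 19.3, 9.97, 7.61, 13.9 and 9.71 CPM. Its female sham libraries held 360, 207, 25.3, 9.77, 14.5 and 123 CPM and its female SMC libraries 26.3, 19.04, 20.4, 12.7, 5.69 and 14.8 CPM. Male sham replicate 4 and 3 of the female sham libraries were far above the others, and the groups overlapped in both sexes. The 3 female sham libraries with the highest Ddit4 were also the 3 with the highest Sesn1, and male sham replicate 4 was the highest of its group for both. Averaged over the sexes Ddit4 fell by 2.39 on the log2 scale (SE 0.546, FDR 0.0217), a 5.24-fold lower level. The call was lost without male sham replicate 4 and female sham replicate 7 (log2 fold change -1.40, FDR 0.0612) and with the library weights of limma (-0.91, FDR 0.245).

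Igf1, the ligand, was higher in males than in females and did not pass the test for SMC. Its male sham libraries held 35.8, 22.9, 24.9, 14.6, 19.6 and 33.9 CPM and its male SMC libraries 32.2, 26.9, 36.1, 25.9, 18.4 and 22.1 CPM. Its female sham libraries held 5.70, 15.5, 13.3, 15.97, 12.1 and 17.5 CPM and its female SMC libraries 24.5, 17.3, 13.5, 17.4, 12.5 and 13.5 CPM. The male median was 25.4 CPM and the female median 14.5 CPM (n = 12 each), and the sexes overlapped. Averaged over both housings, Igf1 was 1.76-fold higher in males (log2 fold change 0.82, SE 0.165, 95% CI 0.476 to 1.157, FDR 0.00367). Between the sexes 2 of the 10 members were called, 1 higher and 1 lower in males, where 4.93% of all tested genes were called (2.39% higher and 2.54% lower). The Igf1 call held under each of the 29 alternative settings, with log2 fold changes from 0.74 to 0.89.

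For SMC against sham, Igf1 had a log2 fold change of 0.090 in males (95% CI -0.38 to 0.56) and 0.30 in females (95% CI -0.19 to 0.78). Averaged over the sexes it was 0.19 (95% CI -0.15 to 0.53, FDR 0.583), so a fall of Igf1 RNA larger than 0.15 on the log2 scale lies outside the interval and a rise of up to 0.53 lies inside it. Without female sham replicate 7, where Igf1 was lowest, the estimate was 0.15 in females and 0.12 averaged over the sexes. Without male sham replicate 4 it was -0.036 in males, and without both libraries it was 0.057 averaged over the sexes. By edgeR no member was called in males, where none of the tested genes was (0% of 16408), and 4 members had an unadjusted p under 0.05 against 11% of all tested genes. DESeq2 called 1 member in males, Sesn1 (FDR 0.0461), and limma called 0. In females edgeR, DESeq2 and limma each called 0 of the members, against 0.341% of all tested genes by edgeR, and 1 member, Sesn1, had an unadjusted p under 0.05 against 12.5%.

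Igf1r encodes the receptor tyrosine kinase for IGF1. The 6 libraries held 40.1, 42.9, 49.4, 60.6, 47.1 and 45.5 CPM in male sham and 53.7, 58.7, 49.2, 58.5, 53.5 and 55.0 CPM in male SMC. In female sham they held 52.5, 56.2, 53.5, 53.3, 71.8 and 66.9 CPM and in female SMC 55.7, 56.0, 55.8, 48.0, 66.4 and 59.1 CPM. Apart from replicate 4, the male sham libraries lay in the lowest part of the range of all 24. The log2 fold change for SMC was 0.20 in males (SE 0.096, FDR 0.438) and -0.055 in females (SE 0.096, FDR 0.871). Between the sexes Igf1r was at -0.18 in males relative to females (SE 0.068, FDR 0.128). Without male sham replicate 4 that difference was called (-0.22, FDR 0.0309).

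Of the IGF binding proteins, which hold IGFs in the extracellular space and in part release them after cleavage, Igfbp5 was the more abundant of the 2 members per length. Igfbp5 held 278, 241, 538, 182, 420 and 653 CPM in male sham and 509, 703, 486, 363, 474 and 522 CPM in male SMC. In female sham it held 401, 449, 516, 561, 458 and 645 CPM and in female SMC 453, 436, 310, 405, 335 and 403 CPM. The male sham libraries were the most scattered, and the group means went opposite ways with housing, from 385 ± 184 to 509 ± 110 CPM in males and from 505 ± 88.4 to 390 ± 56.3 CPM in females. The log2 fold changes were 0.40 in males (SE 0.224, FDR 0.526) and -0.37 in females (SE 0.224, FDR 0.533), and the male value was 0.25 without male sham replicate 4. The test of that difference gave 0.77 (SE 0.317, 95% CI 0.12 to 1.43), which did not pass over all genes (FDR 0.926). By edgeR, DESeq2 and limma no member was called for a sex difference in the SMC response, and by edgeR neither was any other gene (0% of 16408). Igfbp5 was the 1 member with an unadjusted p under 0.05 there, against 5.13% of all tested genes, and leaving out single libraries took the difference from 0.61 to 0.99.

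Igfbp4 held 61.4, 53.6, 43.2, 58.3, 50.6 and 46.6 CPM in male sham and 41.9, 46.6, 43.7, 35.9, 47.4 and 41.8 CPM in male SMC. In female sham it held 42.9, 70.8, 37.3, 48.9, 30.7 and 44.1 CPM and in female SMC 40.9, 47.1, 42.3, 33.4, 46.5 and 40.2 CPM. In males 3 of the 6 SMC libraries lay below every sham library, and in females the sham range enclosed the SMC range. The log2 fold changes were -0.29 in males (SE 0.138, FDR 0.452), -0.14 in females (SE 0.139, FDR 0.756) and -0.21 averaged over the sexes (SE 0.098, FDR 0.26). The residual pattern of Igfbp4 over the 24 libraries was most like those of C1ra, Pdgfra and Gsn (r = 0.908, 0.881 and 0.871), and Pdgfra is one of the 8 fibroblast markers. Those markers summed to 499 to 1575 CPM in sham females, 605 to 866 CPM with SMC, 670 to 1188 CPM in sham males and 770 to 1106 CPM with SMC. Of the fibroblast markers, 7 of 8 had a lower estimate with SMC averaged over the sexes and none was called. By sex, 5 of 8 were lower in males and 7 of 8 in females, with median log2 fold changes of -0.14 and -0.28. The median sum went from 910 to 938 CPM in males and from 1083 to 773 CPM in females. The part of fibroblasts in the Igfbp4 values was not tested, and in bulk muscle fewer cells of a type and less RNA per cell cannot be told apart.

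The core of mTORC1 was nearly level across the 4 groups. Mtor, the kinase, ranged in 24 libraries from 72.0 to 103 CPM, with medians of 85.1 CPM in male sham, 89.3 CPM in male SMC, 88.2 CPM in sham females and 87.5 CPM in SMC females. Rptor, which encodes the scaffold raptor that brings substrates to the kinase, ranged from 56.0 to 75.4 CPM, with medians of 65.0, 70.6, 71.1 and 69.5 CPM in the same order. Rps6kb1, which encodes S6 kinase 1, ranged from 32.3 to 45.7 CPM, with medians of 39.5, 40.1, 34.9 and 37.5 CPM. For these 3 genes every pair of groups overlapped in part.

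Averaged over the sexes, the log2 fold change for SMC was 0.043 for Mtor (95% CI -0.066 to 0.15, FDR 0.727), 0.044 for Rptor (95% CI -0.049 to 0.14, FDR 0.663) and 0.016 for Rps6kb1 (95% CI -0.095 to 0.13, FDR 0.918). For none of the 3 does the interval hold a rise above 0.153, the upper bound of Mtor, or a fall beyond 0.095, the lower bound of Rps6kb1, on the log2 scale. Rptor in males was at 0.13 (SE 0.064, FDR 0.448), with 4 of 6 SMC libraries above every sham library, and in females at -0.045 (SE 0.064, FDR 0.832). Between the sexes Mtor differed by 0.0005 (95% CI -0.11 to 0.11), the smallest sex difference among the 10.

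Of the inhibitors other than Sesn1, Deptor differed between the sexes. Deptor encodes a protein that binds mTOR and restrains both of its complexes. Its libraries held 83.0, 87.9, 87.3, 110, 114 and 112 CPM in male sham and 115, 123, 106, 115, 130 and 106 CPM in male SMC. In female sham they held 148, 87.3, 110, 141, 134 and 125 CPM and in female SMC 154, 158, 163, 111, 135 and 119 CPM. The female median was 134 CPM and the male median 111 CPM (n = 12 each), with overlap. Deptor was 1.23-fold lower in males than in females (log2 fold change -0.30, SE 0.085, FDR 0.0395), a call lost in 16 of 29 alternative settings, with FDR up to 0.0748. With SMC its estimate was higher in both sexes, at 0.23 in males (FDR 0.499) and 0.17 in females (FDR 0.597), and averaged over the sexes it was 0.20 (SE 0.085, 95% CI 0.026 to 0.37, FDR 0.209).

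Tsc2, which encodes the GTPase-activating subunit tuberin of the TSC complex, held 102, 110, 122, 130, 112 and 114 CPM in male sham and 128, 123, 125, 123, 141 and 135 CPM in male SMC. In female sham it held 152, 95.9, 120, 116, 117 and 138 CPM and in female SMC 128, 135, 127, 139, 152 and 130 CPM. In males 2 of the 6 SMC libraries lay above every sham library, and in females the SMC libraries lay within the sham range. Averaged over the sexes the log2 fold change was 0.15 (SE 0.061, 95% CI 0.026 to 0.28, FDR 0.186). It was called without male sham replicate 4 and female sham replicate 7 (0.20, FDR 0.0459) and with limma's library weights (0.17, FDR 0.0398). In all, 4 of the 10 members had an unadjusted p under 0.05 for SMC averaged over the sexes (Igfbp4, Deptor, Sesn1 and Tsc2), against 17.5% of all tested genes. The members' median log2 fold change was 0.044, against -0.0089 for all tested genes.

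**Figure D2:**
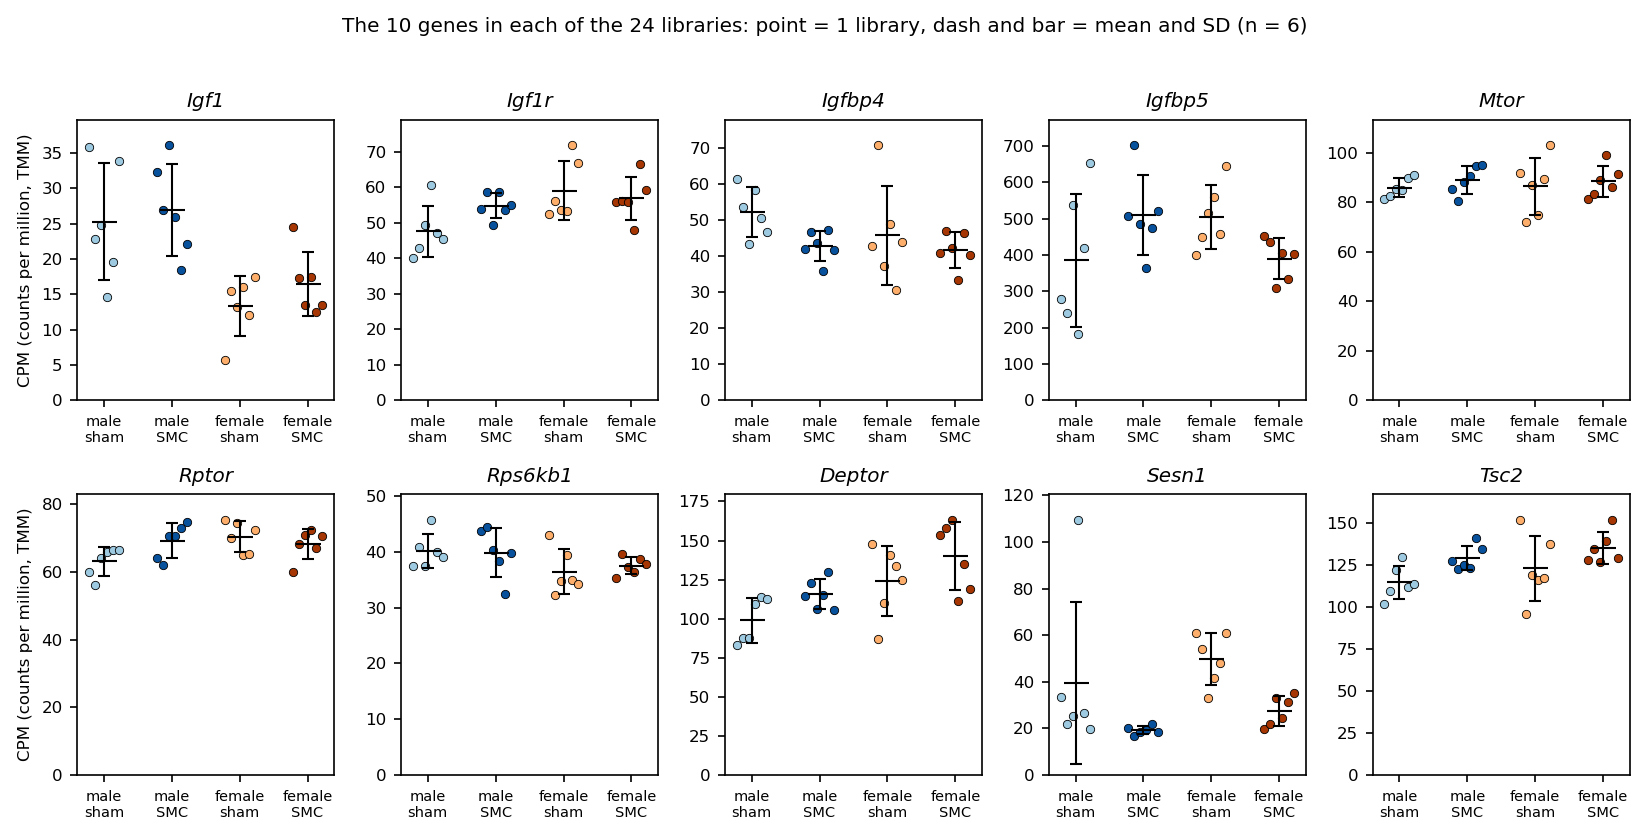
CPM of each of the 10 genes in the 24 libraries, 1 point per library, with the mean and SD of each group of 6, on axes that start at 0. The means of Sesn1 were lower in both SMC groups, Igf1 was higher in the 2 male groups, and Mtor, Rptor and Rps6kb1 were nearly level.

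**Figure D3:**
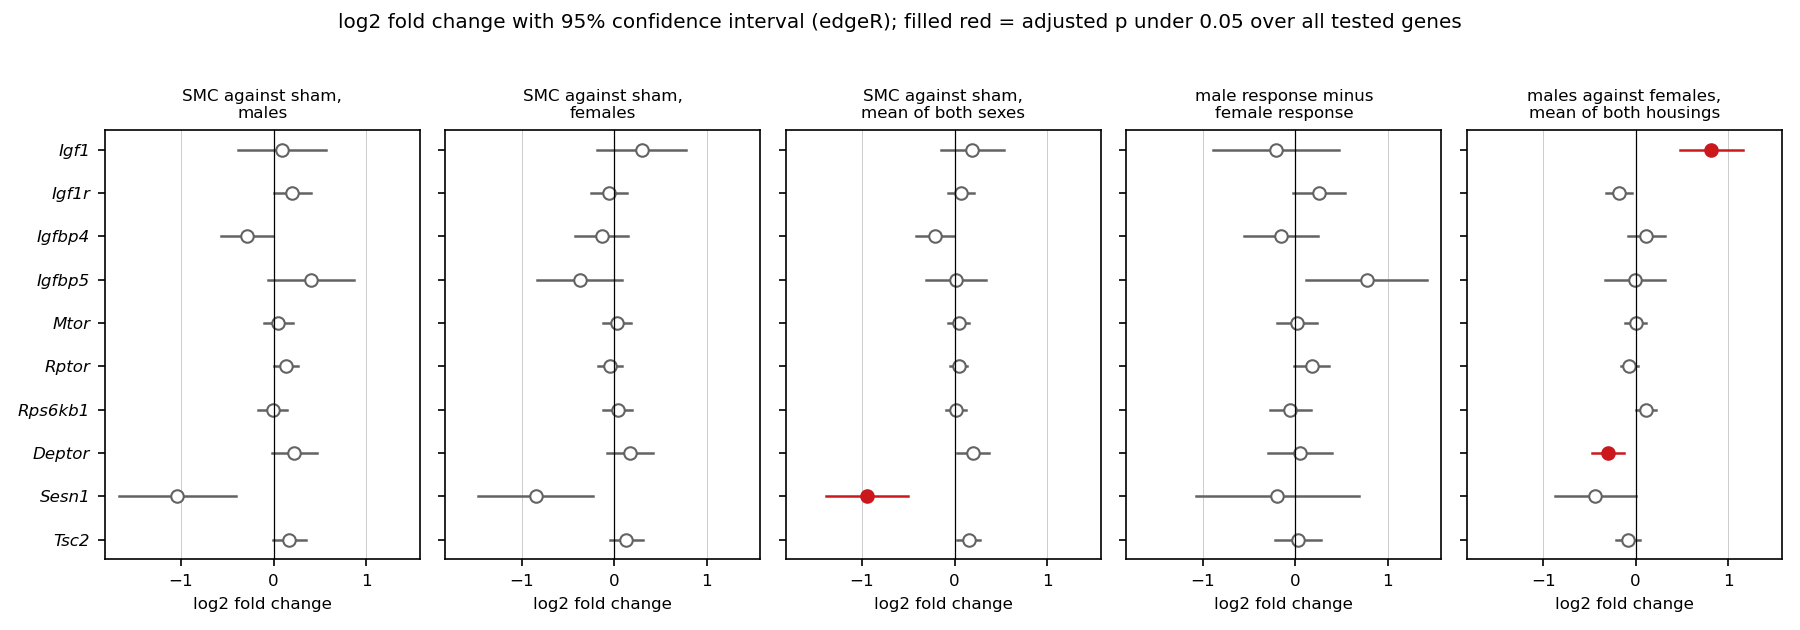
Log2 fold changes with 95% confidence intervals from edgeR for the 10 genes in the 5 comparisons, filled red where the FDR was under 0.05. The 3 red points are Sesn1 for SMC averaged over the sexes (-0.94) and, between the sexes, Igf1 (0.82) and Deptor (-0.30).

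Between the sexes Sesn1 had a lower estimate in males, which was not called with all libraries (-0.43, SE 0.214, FDR 0.269). Of the 24 fits with 1 library left out, 1 called it, the fit without male sham replicate 4 (-0.74, FDR 0.00016). That library held the highest Sesn1 of the males, so leaving it out lowers the male mean by itself. With limma's weights, which were lowest for that library (0.283), the difference was -0.64 (FDR 0.00551). The medians were 26.1 CPM in male sham against 51.0 CPM in female sham, and 18.9 CPM in male SMC against 27.9 CPM in female SMC.

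Levels were compared between genes as CPM per kilobase of annotated exon. In male sham Igfbp5 stood first at 64.2 ± 30.7 CPM per kilobase. It was followed by Tsc2 (11.95 ± 1.03), Igfbp4 (11.8 ± 1.56), Deptor (11.2 ± 1.62), Sesn1 (9.91 ± 8.69) and Mtor (8.48 ± 0.386), of which Tsc2, Igfbp4 and Deptor lay within 1 SD of each other and the libraries of Sesn1 (4.93 to 27.5) spanned all of them. Rptor (4.68 ± 0.316) and Rps6kb1 (4.63 ± 0.353) came next, then Igf1r (2.83 ± 0.427) and Igf1 (2.55 ± 0.830), and each of these pairs lay within its spread. In female SMC the order was Igfbp5 (65.0 ± 9.38), Deptor (15.8 ± 2.45), Tsc2 (14.1 ± 0.986), Igfbp4 (9.45 ± 1.12), Mtor (8.74 ± 0.628), Sesn1 (6.94 ± 1.61), Rptor (5.06 ± 0.331), Rps6kb1 (4.33 ± 0.181), Igf1r (3.38 ± 0.355) and Igf1 (1.66 ± 0.452). Of the neighbours there, Deptor and Tsc2, and Igfbp4 and Mtor, lay apart by less than the larger SD of the pair, though by more than the smaller. Receptor and ligand RNA were thus the lowest of the 10 per length in both groups, and in female SMC the receptor level was above that of the ligand in every library (2.86 to 3.95 against 1.26 to 2.48 CPM per kilobase).

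The wider pathway list held 95 genes of IGF and mTOR signaling, the 10 included, of which 93 were tested (Igfbp1 and Igfbp2 were not). For SMC averaged over the sexes 2 of the 93 were called, both lower (Sesn1 and Ddit4), a share near the 2.36% of all tested genes. An unadjusted p under 0.05 was seen for 25 of the 93 (6 higher, 19 lower) against 17.5% of all 16408 tested genes (1296 higher, 1583 lower). By edgeR none of the 93 was called in males or in females (2 and 1 by DESeq2, which called 133 and 268 of all genes, and 0 and 0 by limma, which called 93 and 16), with 20 (8 higher, 12 lower) and 13 (1 higher, 12 lower) at an unadjusted p under 0.05 against 11% and 12.5%. Over all tested genes that p was reached by 888 higher and 917 lower in males, and by 824 higher and 1225 lower in females. By role, the genes of the mTOR complexes and their assembly had the most even direction, with 9 of 11 estimates higher (81.8%, against 47.6% of all tested genes). Their median log2 fold change was 0.043, and none of them was called. Within the sexes 8 of 11 were higher in males and 7 of 11 in females. At an unadjusted p under 0.05 by edgeR, 1 was higher and 0 lower in males, and 0 were higher and 2 lower in females. Of the 29 amino acid sensing genes, 18 had lower estimates with SMC (37.9% were higher, against 47.6% of all tested genes). In that role 1 gene was called, Sesn1. None of the 5 ligands and receptors, 10 tested binding proteins and their proteases, 15 PI3K and AKT genes, 5 genes of the TSC complex and Rheb or 13 mTORC1 effectors was called.

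The genes of this list next closest to the threshold for SMC had lower estimates. Pik3r1, which encodes the regulatory p85alpha subunit of PI3K, had a mean of 78.5 ± 30.5 CPM in male sham, 55.6 ± 5.46 CPM in male SMC, 102 ± 23.2 CPM in sham females and 77.2 ± 15.1 CPM in SMC females. Its log2 fold change averaged over the sexes was -0.45 (SE 0.133, FDR 0.0669, and 0.027 by DESeq2), and -0.30 (FDR 0.111) without the 2 libraries that stood apart. Rheb, the GTPase that activates mTORC1, was at -0.13 (SE 0.041, FDR 0.0789, and 0.0377 by DESeq2), with means of 41.9 ± 3.92 and 37.1 ± 1.92 CPM in male sham and SMC and of 37.9 ± 1.99 and 35.6 ± 0.83 CPM in female sham and SMC. In males, Rps6, the ribosomal protein that S6 kinase phosphorylates, was at -0.25 (SE 0.069, FDR 0.174) and Rraga, a Rag GTPase that brings mTORC1 to the lysosome, was at -0.20 (SE 0.066, FDR 0.254). In females the binding protein gene Igfbp3 was at -0.64 (SE 0.219, FDR 0.195) and Prr5, an mTORC2 subunit gene, at -0.74 (SE 0.259, FDR 0.20). Tendon cell markers had lower estimates in SMC females in 7 of 8 cases, 5 of them at an unadjusted p under 0.05, with sums of 209 to 833 CPM in sham and 134 to 414 CPM in SMC females, and their part in these values was not tested.

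For a sex difference in the SMC response none of the 93 was called by edgeR, DESeq2 or limma, and 4 had an unadjusted p under 0.05, against 5.13% of all tested genes. Beside Igfbp5 they included Rps6 (-0.25, SE 0.098, FDR 0.926) and Telo2, whose product helps to assemble mTOR complexes (0.30, SE 0.132, FDR 0.946).

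Between the sexes 8 of the 93 were called, 2 higher and 6 lower in males, against 4.93% of all tested genes. Grb10, an imprinted gene whose adaptor protein dampens insulin and IGF1 receptor signaling, was lower in males, with 36.3 to 45.9 CPM (median 40.7) in the 12 males and 53.7 to 90.8 CPM (median 65.5) in the 12 females. The sexes did not overlap for Grb10, and the share of all tested genes without such overlap was not counted. The log2 fold change was -0.69 (SE 0.066, FDR 1.73e-07). Pappa, which encodes the protease PAPP-A that cleaves IGFBP4, held 1.43 to 2.39 CPM in males and 1.90 to 4.88 CPM in females (-0.60, SE 0.141, FDR 0.013). Stc2, which encodes an inhibitor of PAPP-A, held 1.29 to 2.87 CPM in males and 2.71 to 25.7 CPM in females (-1.61, SE 0.291, FDR 0.00122, and -1.20 without female sham replicate 7, FDR 0.000103). Protease and inhibitor were thus both lower in males, while Igfbp4 itself was at 0.12 (SE 0.098, FDR 0.564).

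Wdr24, a GATOR2 subunit gene, was lower in males (log2 fold change -0.21, SE 0.06, FDR 0.0416), and its call was lost in 17 of 29 alternative settings. The adipocyte markers were all 5 lower in males at an unadjusted p under 0.05, none of them called, with sums of 3.77 to 81.5 CPM in male sham, 6.63 to 40.1 CPM in male SMC, 18.1 to 87.0 CPM in sham females and 15.8 to 175 CPM in SMC females. Their part in the sex differences was not tested.

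**Figure D4:**
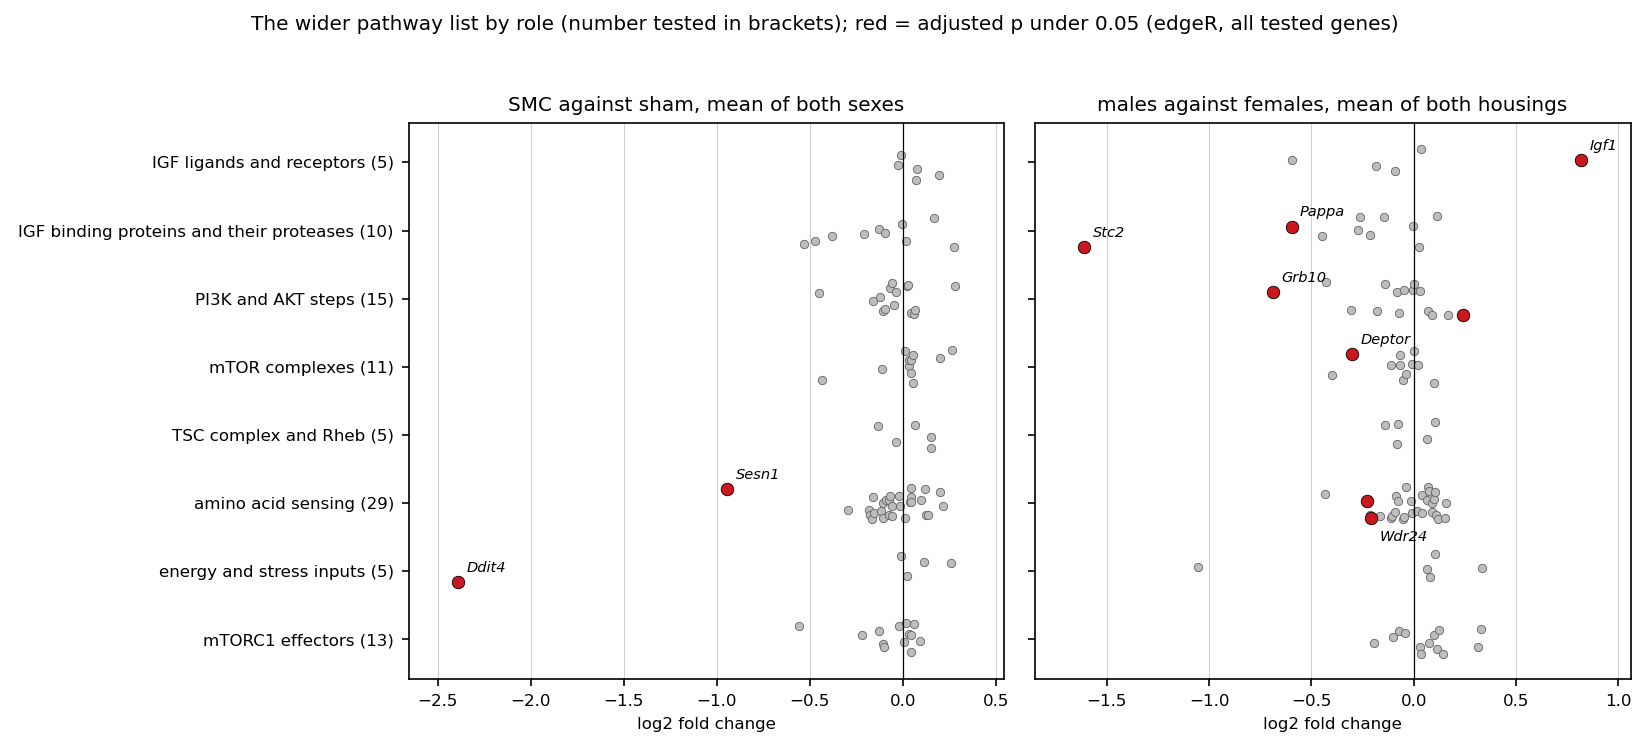
Log2 fold changes of the 93 tested pathway genes by role, for SMC against sham averaged over the sexes (left) and for males against females averaged over housing (right), red where the edgeR FDR was under 0.05. For SMC the 2 red genes are Sesn1 and Ddit4. Between the sexes 8 genes are red, 6 of them labelled, with Stc2 (-1.61) and Igf1 (0.82) at the ends.

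Over the 24 libraries, after each group's mean log2 CPM was subtracted, Mtor varied most with Rptor (r = 0.62) and Tsc2 (r = 0.62) among the members, and Igfbp5 varied opposite to Sesn1 (r = -0.63). These correlations share libraries and their depth and composition, and are given as descriptions. Male sham replicate 4 had the highest Sesn1 (109 CPM) and the lowest Igfbp5 (182 CPM) of its group. No correlation given here was repeated without that library. Of 16308 tested genes with a symbol, those most like each member included Tmem140 and 4931406P16Rik for Sesn1 (r = 0.932 and 0.908) and Hdlbp, Cdk16 and Foxo4 for Tsc2 (0.936, 0.928 and 0.924). For Igf1 they were Angptl1, Csnk1g3 and Ptgfrn (0.853, 0.841 and 0.837), for Rps6kb1 they were Dlg1, Eps15 and Usp34 (0.875, 0.864 and 0.856), and for Igf1r they were Zswim4, Sun1 and Kank1 (0.821, 0.794 and 0.791). For Deptor they were Abcc4, Ccdc88c and Caprin2 (0.821, 0.762 and 0.757), and for Igfbp5 they were Etv6 and Esr1 (0.785 and 0.752). For Mtor they were Crat, Gpat4 and Pomgnt1 (0.791, 0.773 and 0.768), and for Rptor they were Nxn, Lrp5 and Flii (0.768, 0.746 and 0.735).

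The exons of 4 members overlap a gene on the other strand in the GRCm38 annotation used here, and without the strand setting of the counting, reads in the shared bases cannot be assigned. Tsc2 shares 693 bases (7.2% of its exon length) with Pkd1, which held 2270 to 5001 counts per library, and Deptor shares 303 bases with Gm9920, which held 1 to 16. Rps6kb1 shares 155 bases with Rnft1, and Rptor shares 84 bases with Rptoros. Sesn1 and Igf1 share none.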

How the data were processed

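Gastrocnemius RNA of 24 mice was depleted of ribosomal RNA and sequenced from directional libraries. The authors deposited raw counts of reads per Ensembl gene, with no normalization. The submitters' processing notes name cutadapt 1.16, STAR 2.7.9a, featureCounts 1.6, DESeq2 1.34.0 and the build GRCm39 (mm39), without roles, while the gene annotation's release and whether strand was used in counting are not given in the sources used here. The model that the study used for these counts is not given in the sources used here.

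Groups came from the sex and treatment labels, which Xist and Ddx3y matched in all libraries, and 60 pairs of libraries within groups all differed beyond sampling noise (chi-square per degree of freedom at least 10.7). That libraries of a group are separate mice is taken from the labels. Symbols were found for 52083 of 55416 genes, and the rest held 0.361% of counts. Counts were filtered by filterByExpr, scaled by TMM and fitted with 1 mean per group by edgeR 4.0.16 in R 4.3.3 (quasi-likelihood, two-sided, Benjamini-Hochberg FDR under 0.05). The 5 contrasts were SMC against sham in each sex, their mean and their difference, and males against females. Log2 CPM used a prior count of 2. Exon lengths and overlaps came from GENCODE mouse release M21 (GRCm38) by gene identifier, and sequences from RefSeq. Alternatives were DESeq2 1.42.0, limma 3.58.1 voomWithQualityWeights, other filters, the 12 libraries of a sex, other scalings, and libraries left out. The pipeline was tested on simulated data.

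All 10 members were named. Of the wider list, genes called in any contrast and the 3 other genes of smallest p in each contrast were named, and for each member the 3 genes of highest r, except that some genes this rule names are not reported here. Members, lists and the 2 libraries left out together were chosen with earlier results of these data known.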

Additional observations from a re-analysis of the deposited data

Results flagged for a closer look

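In groups of 6, a value was set apart when its gap to the nearest other library exceeded Dixon's 95% limit. Of 72 groups tested (the 10 members and 8 marker lists in 4 groups), 5 held such a value, and 3.6 would by chance at 1 in 20. Sesn1 in male sham replicate 4 was at 109 CPM against 19.6 to 33.4 CPM in the other 5. In the same library the slow fibre markers had a mean log2 CPM of 2.47 against 7.07 to 8.12, and the endothelial cell markers 5.26 against 5.46 to 5.58. Female sham replicate 7 had a slow fibre mean log2 CPM of 2.19 against 7.28 to 8.33. Male sham replicate 1 had a skeletal muscle fibre mean log2 CPM of 12.7 against 13.1 to 13.2.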

How the results depend on the processing

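Of the member calls, Sesn1 for SMC averaged over the sexes and Igf1 between the sexes passed under all 29 alternatives each, and Deptor between the sexes passed in 13 of 29. In males DESeq2 called 1 member and 2 pathway genes where edgeR called 0 (133 and 0 of all genes). In females the pathway count was 1 by DESeq2 (268 of all genes against 56), and without male sham replicate 4 and female sham replicate 7 both counts were 1 (Sesn1, with 155 of all genes). Averaged over the sexes, limma and the fit without those 2 libraries each called 2 members (Sesn1 and Tsc2), and DESeq2 called 4 pathway genes (against 2), with 778 against 388 over all genes. Between the sexes, the member count of 2 was 1 with no filter on low counts and 4 with limma and without the 2 libraries. The pathway count of 8 was 5 with no filter, 15 with limma and 14 without the 2 libraries, while calls over all genes went from 809 to 592, 1420 and 1268.

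With single libraries left out, pathway calls were 0 to 1 in males, member calls 0 to 1 and pathway calls 0 to 2 in females (the highest without male sham replicate 4), and between the sexes 1 to 4 members and 6 to 13 pathway genes. Some estimates changed sign, none of them called. Several were near 0, but Sesn1 for the difference in response and Igfbp4 in females were not. Without the 2 libraries, Igf1 in males was at -0.036, Rps6kb1 in males at 0.021 (0.011 with limma), Igfbp5 averaged over the sexes at -0.090 (-0.023 with limma), and Tsc2, Mtor and Sesn1 for the difference in response at -0.010, -0.016 and 0.36 (Sesn1 0.35 with limma). Igfbp5 between the sexes was at 0.042 without them and 0.0054 with no filter, Mtor for the difference in response at -0.0031 with no filter, and Mtor between the sexes at -0.00016 with DESeq2 and -0.00097 with the minimum of 10 counts. With single libraries left out, Igf1 in males ranged from -0.036 to 0.21, Rps6kb1 in males from -0.045 to 0.035, Igf1r in females from -0.099 to 0.0048, Igfbp4 in females from -0.23 to 0.029, Mtor in females from -0.016 to 0.098, and, averaged over the sexes, Igfbp5 from -0.061 to 0.12 and Rps6kb1 from -0.0021 to 0.041 (0.060 without the 2 libraries). For the difference in response Mtor ranged from -0.051 to 0.067, Deptor from -0.017 to 0.14, Sesn1 from -0.33 to 0.42 and Tsc2 from -0.046 to 0.097, and between the sexes Igfbp5 from -0.11 to 0.071 and Mtor from -0.021 to 0.032. The cause was not tested. Scaling by library totals moved 2 of 40 group means by more than 1 SD, Mtor in male sham to 90.4 CPM and Rps6kb1 in female SMC to 35.6 CPM, and DESeq2 size factors moved none.

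No paired analysis was possible because the labels give no pairing of mice between groups. The methods state that sham and SMC mice were housed in pairs in some experiments, without saying which.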
